A study of Danio rerio with 80 samples.

Results

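The data described here ask how the transcriptional effect of 8-methylbenzo[a]pyrene (8-MBaP) on zebrafish embryos differed between 72 and 48 hours post fertilization (hpf). They comprise 24 of the 80 RNA libraries of the series, in 6 groups of 4 libraries: 1.33 µM and 13.3 µM 8-MBaP and the DMSO control, each at 72 hpf and at 48 hpf. The libraries were chosen by a rule on their labels that uses no measured value, though earlier results of these data were known. Each library is a pool of 6 whole wild-type embryos of the 5D line, and the pools of a group are lettered A to D. The egg envelopes of all embryos, controls included, had been removed with enzymes before exposure. 8-MBaP and 6-methylbenzo[a]pyrene (6-MBaP) are forms of the polycyclic aromatic hydrocarbon benzo[a]pyrene (BaP) that carry a methyl group at different ring positions. BaP and 6-MBaP at 13.3 µM serve below only to show where 8-MBaP differed from them. According to the labels, 48 hpf precedes any visible malformation and 72 hpf is when malformations begin. In larvae scored at a later age than those collected here, the lower concentration gave only the x-fin phenotype, a duplication of the caudal fin. The higher one also gave cranial malformations and edema at that later age. The authors place 72 hpf after the x-fin emerges and before the other malformations.

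Several features of the design limit these groups. Each exposure was made on a multi-well plate of its own and the controls on another, so pools of a group share a plate and the plate cannot be told apart from the exposure. Embryos were taken alive and without regard to their phenotype, and of 5 pools per group the 4 with the most concentrated RNA were sequenced. P-values therefore measure the spread between pools that shared a plate.

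Planar aromatic hydrocarbons bind the aryl hydrocarbon receptor (AHR), a ligand-activated transcription factor, which then switches on a battery of target genes headed by the cytochrome P450 enzymes of family 1. In zebrafish the receptor Ahr2 carries most of this response in embryos. At these stages the embryo is covered by a thin epidermis rich in keratins, the fin folds are held open by actinotrichia, fibrils that contain Actinodin proteins, and the hatching gland releases the enzymes that dissolve the egg envelope. The retina and the gut also mature in this window, so the control level of many genes is itself moving.

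The 24 libraries held 5353245 to 8241439 reads assigned to genes (median 6422050), and the 10 most abundant genes took 17.4% to 26.4% of them. The reads come from the 3′ ends of transcripts. Marker genes of skeletal muscle (*ckma*, 20180 to 33400 normalised reads per pool), lens (*cryaa*, 109 to 269) and epidermis (*cldne*, 353 to 582) were present in every pool, as the whole-animal label implies. In the controls alone, 4362 of 19211 genes tested (22.7%) differed between 72 and 48 hpf. Of these, 2394 were higher and 1968 lower at 72 hpf. Normalised reads below are reads scaled to a common library size, and "effect" means the log2 fold change of exposed pools over the controls of the same age.

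8-MBaP acted at both ages, and more genes passed the test at the later one. At 13.3 µM, 461 genes differed from control at 72 hpf (2.4% of genes tested, 211 higher and 250 lower) and 237 at 48 hpf (1.23%, 115 higher and 122 lower). At 1.33 µM the counts were 186 at 72 hpf (0.968%, 93 higher and 93 lower) and 118 at 48 hpf (0.614%, 73 higher and 45 lower), all at an adjusted P-value of at most 0.05 by edgeR's quasi-likelihood F test. A gene that passes at one age and not at the other has not been shown to differ between them. Of the 461 genes called at 72 hpf with 13.3 µM, 401 had the same sign at 48 hpf and 127 were called there in the same direction. No gene was called in opposite directions at the ages, at either concentration. Their median absolute effect was 0.75 at 72 hpf, against 0.36 at 48 hpf. For the 237 genes called at 48 hpf the order was the other way round, with a median of 0.57 at 72 hpf, against 0.76 at 48 hpf. Each set was largest at the age at which it was selected.

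The difference between ages was therefore tested directly. The effect change is the effect at 72 hpf minus the effect at 48 hpf, so that a negative value means a lower or less positive effect at 72 hpf. At 13.3 µM 19 of 19211 genes passed (0.0989% of genes tested), 7 with a positive and 12 with a negative change. At 1.33 µM 13 genes passed (0.0677%), 4 positive and 9 negative. In the mean of the concentrations, which share their controls, 30 genes passed (0.156%), 9 positive and 21 negative. Together these are 37 genes, of which 7 were called at both concentrations. The median change over all genes tested was -0.01 at 13.3 µM and at 1.33 µM. At an unadjusted P-value under 0.05 the numbers were 1262 at 13.3 µM, 1419 at 1.33 µM and 1424 in the mean. The count at 13.3 µM was 11 without 8-MBaP pool A at 48 hpf, 12 without pool C at 48 hpf, 8 without pool D at 72 hpf, and 12 and 11 without control pools A and D at 72 hpf. The count in the mean was 16 and 19 without control pools B and C at 48 hpf, and 13 and 16 without control pools A and D at 72 hpf.

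The called genes differed in the age at which their effect was itself called. Of the 19 genes called at 13.3 µM, 11 had an effect called only at 72 hpf, 2 only at 48 hpf, 4 at both ages in the same direction and 2 at neither. Of the 13 genes called at 1.33 µM, the numbers were 5 only at 72 hpf, 4 only at 48 hpf, 3 at both and 1 at neither. Of the 37 genes, 27 also differed between the ages in the controls, 13 higher and 14 lower at 72 hpf, against 22.7% of all genes tested. The controls of both ages are themselves part of the effect change. These counts describe genes selected on the same libraries. They carry no test of their own.

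**Figure D1:**
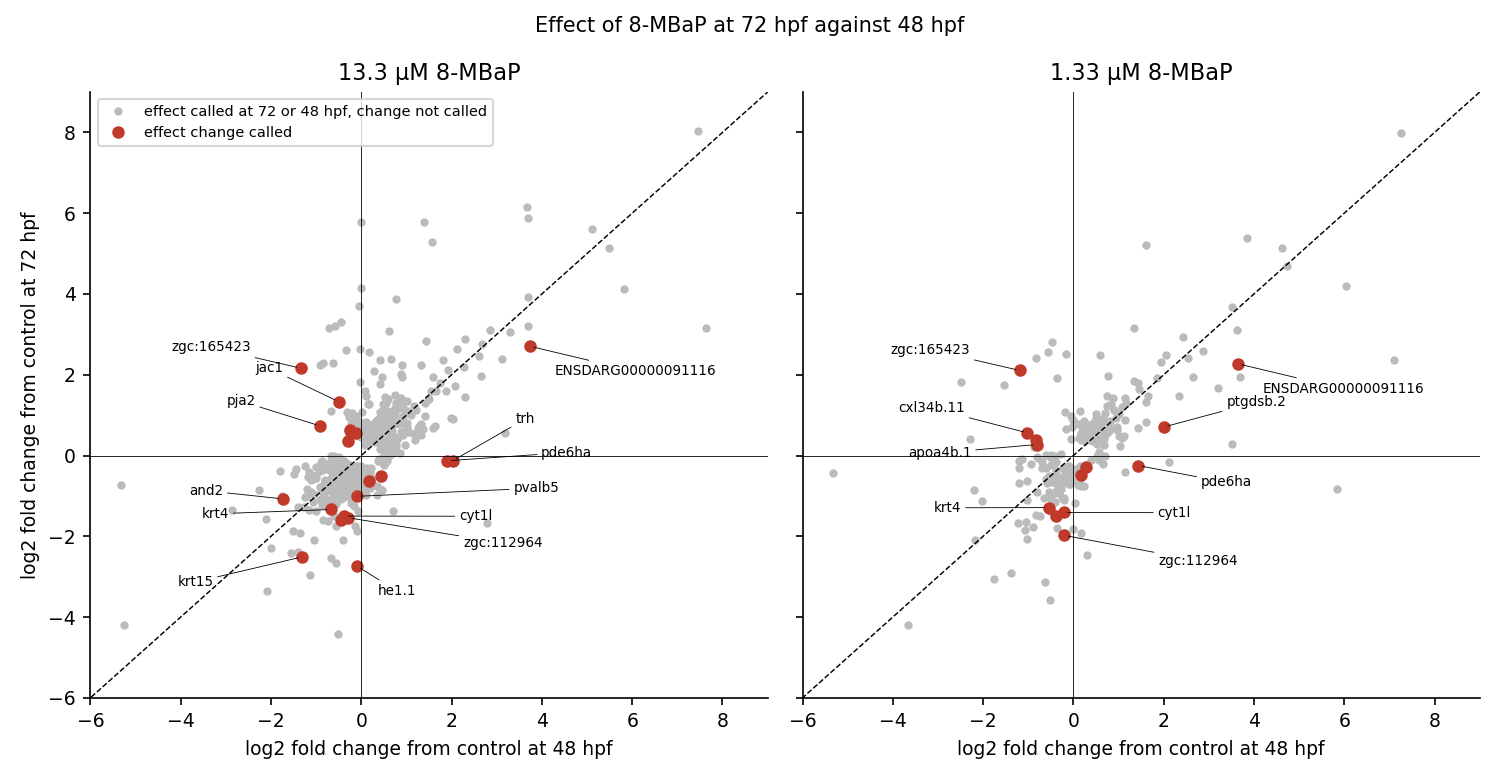
Log2 fold change over control at 72 hpf (vertical axis) against that at 48 hpf (horizontal axis), at 13.3 µM (left) and 1.33 µM (right). The genes shown had an effect called at either age or a called effect change. Red points are the 19 and 13 genes whose effect change was called, grey points are other genes with an effect at either age, and the dashed line marks equal effects. Most red points below the line have a negative effect at 72 hpf, whereas *pde6ha* lies on the right near 0 at 72 hpf and *zgc:165423* lies above the line on the left.

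Among 17 keratin genes tested, *krt4*, *krt15*, *cyt1l* and *cyt1* had a more negative effect at 72 than at 48 hpf, by the test of the change at either concentration or in their mean. *krt4*, a keratin of the outer epidermal layer, held 21740, 17410, 22140 and 19770 normalised reads in pools A to D at 1.33 µM and 72 hpf and 20470, 20000, 17010 and 21000 at 13.3 µM, against 47570, 51820, 45680 and 53180 in the 72 hpf controls. The 48 hpf pools held 45410, 43160, 48700 and 48020 at 1.33 µM and 43410, 42100, 41070 and 43470 at 13.3 µM, against 62740, 71330, 66010 and 71130 in controls. Exposed and control pools did not overlap at either age. At 48 hpf the 1.33 µM pools overlapped the range of the 72 hpf controls, whereas the 13.3 µM pools lay below it. The effect at 13.3 µM was -1.34 ± 0.07 (SE) at 72 hpf, against -0.67 ± 0.07 at 48 hpf, a change of -0.66 ± 0.10 (edgeR adjusted P-value 3.6e-05). At 1.33 µM the change was -0.74 ± 0.10 (edgeR adjusted P-value 9.96e-07). In whole embryos, fewer cells of a type and less RNA per cell cannot be told apart.

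*krt15*, another keratin, was also lower at both ages, and its control level was higher at 72 than at 48 hpf. Its pools held 149, 139, 192 and 125 normalised reads at 1.33 µM and 114, 131, 99.5 and 99.4 at 13.3 µM at 72 hpf, against 658, 708, 684 and 473 in controls. At 48 hpf they held 134, 125, 107 and 134 at 1.33 µM and 127, 118, 81.6 and 89.6 at 13.3 µM, against 244, 250, 272 and 258 in controls. Exposed pools thus stayed at about the same level at both ages while control pools differed between the ages by 1.298 ± 0.16 on the log2 scale. The effect at 13.3 µM was -2.51 ± 0.17 at 72 hpf, against -1.304 ± 0.18 at 48 hpf, a change of -1.21 ± 0.25 (edgeR adjusted P-value 0.012). At 1.33 µM the change of -1.02 did not pass (95% interval -1.505 to -0.54, edgeR adjusted P-value 0.073), and the difference between the concentrations was -0.18 (95% interval -0.70 to 0.34).

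*cyt1l* and *cyt1* encode type I cytokeratins. *cyt1l* held 11470, 6794, 7586 and 5956 normalised reads at 1.33 µM and 8574, 6185, 8184 and 6935 at 13.3 µM at 72 hpf, against 24110, 18120, 17870 and 24440 in controls. At 48 hpf the ranges were 17280 to 21700 at 1.33 µM and 15400 to 19480 at 13.3 µM, against 20220 to 25950 in controls. The groups were apart at 72 hpf, whereas at 48 hpf the 1.33 µM pools overlapped the controls and the 13.3 µM pools lay just below them, and no effect was called there (-0.38 ± 0.17 at 13.3 µM and -0.22 ± 0.17 at 1.33 µM). Its change was -1.12 ± 0.24 at 13.3 µM and -1.20 ± 0.24 at 1.33 µM (edgeR adjusted P-values 0.0225 and 0.0114). *cyt1* passed only in the mean, at -0.51 ± 0.11 (edgeR adjusted P-value 0.0194), with effects at 13.3 µM of -1.14 ± 0.09 at 72 hpf and -0.645 ± 0.09 at 48 hpf. These keratins resemble one another in sequence, so reads may have been divided between them in a way that the counts do not show.

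Not all keratins followed. Of 21 keratins listed 17 were tested, and the change was negative and called for 3 of them at 13.3 µM, 2 at 1.33 µM and 4 in the mean, with none positive and called. These were 17.6%, 11.8% and 23.5% of those tested, against 0.0989%, 0.0677% and 0.156% of all genes. The median change over the 17 was 0.02 at 13.3 µM and -0.15 at 1.33 µM, against -0.01 over all genes at each concentration. Effects were called lower for 6 of the 17 at 72 hpf and for 6 at 48 hpf with 13.3 µM, and for 7 at 72 hpf and 5 at 48 hpf with 1.33 µM. At 13.3 µM these were 35.3% of the list at each age, against 2.4% and 1.23% of all genes. At 1.33 µM they were 41.2% and 29.4%, against 0.968% and 0.614% of all genes. *krt91*, chosen here after its values were seen, was lowered by a similar amount at both ages (-0.62 ± 0.10 at 72 hpf and -0.76 ± 0.10 at 48 hpf with 13.3 µM), and its change of 0.14 ± 0.14 was not called. *krt5*, an epidermal marker that is also outside the rule for naming genes, had effects of -0.26 ± 0.07 at 72 hpf and -0.38 ± 0.07 at 48 hpf with 13.3 µM. Its change was 0.13 ± 0.11. Of 27 other epidermal genes tested, none had a called change, and *anxa1c*, an annexin, came nearest at 13.3 µM (-0.635 ± 0.16, edgeR adjusted P-value 0.105).

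**Figure D2:**
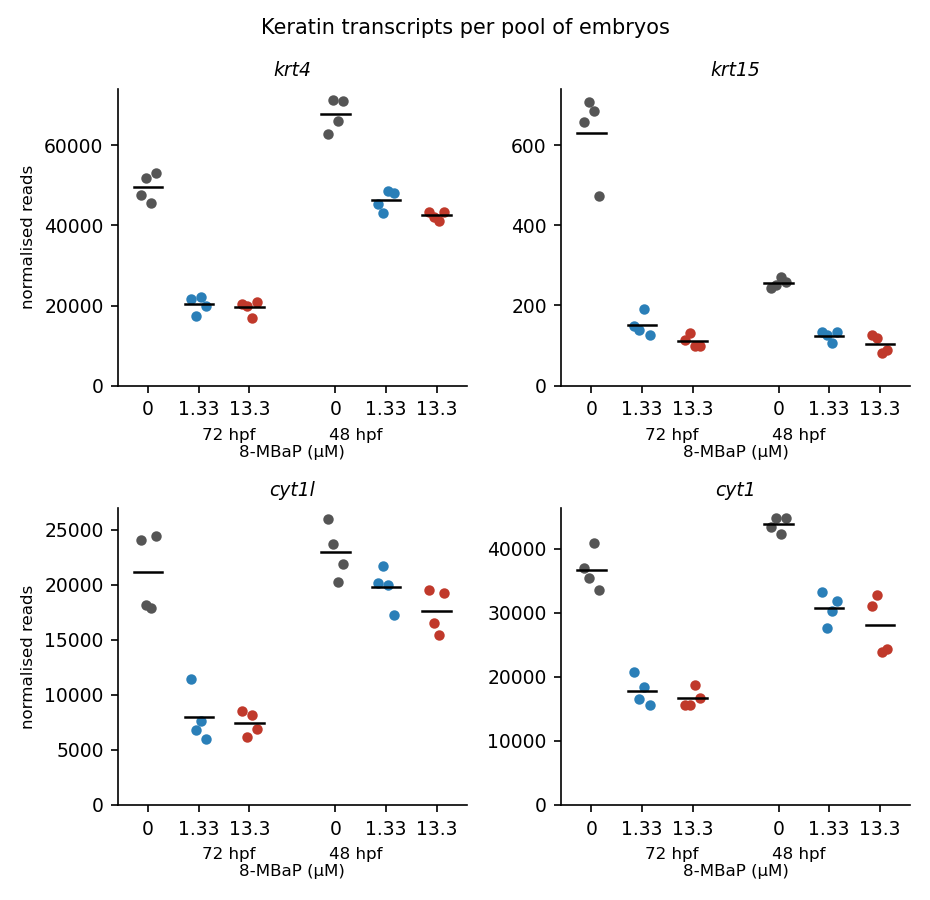
Normalised reads of *krt4*, *krt15*, *cyt1l* and *cyt1* in each pool (points) with the mean of 4 pools (bars), by 8-MBaP concentration, at 72 hpf (left in each panel) and 48 hpf (right). Exposed pools of *krt4* lie at 17010 to 22140 at 72 hpf, against 45680 to 53180 in controls, and the gap at 48 hpf is smaller.

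*and2* encodes an Actinodin of the actinotrichia. It held 2456, 1942, 2349 and 1931 normalised reads at 1.33 µM and 1324, 1622, 1740 and 1939 at 13.3 µM at 72 hpf, against 3852, 3356, 3496 and 3249 in controls. Pools at 48 hpf held 797, 1160, 1055 and 1208 at 1.33 µM and 624, 759, 670 and 863 at 13.3 µM, against 2473, 2525, 2587 and 2145 in controls. All exposed pools lay below all control pools of their age, and on the log2 scale the gap was wider at 48 hpf. The effect at 13.3 µM was -1.07 ± 0.10 at 72 hpf, against -1.74 ± 0.10 at 48 hpf, so the change was positive, 0.66 ± 0.14 (edgeR adjusted P-value 0.0121). At 1.33 µM it was 0.52 (95% interval 0.24 to 0.80) and did not pass. *and2* was the single called change among 27 tested genes of fin fold structure and regulation (3.7% at 13.3 µM, against 0.0989% of all genes). Their median change was 0.01 at 13.3 µM and 0.07 at 1.33 µM. Effects in that list went both ways, with 6 higher and 4 lower at 72 hpf and 5 higher and 4 lower at 48 hpf with 13.3 µM. Together these were 37% and 33.3% of the list, against 2.4% and 1.23% of all genes. *dlx3b*, a homeobox gene, was among those higher at both ages (1.28 ± 0.14 at 72 hpf and 0.87 ± 0.14 at 48 hpf).

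*he1.1* encodes a hatching enzyme, although the egg envelopes of these embryos had been removed before exposure. At 72 hpf it held 90.3, 277, 67.9 and 37.4 normalised reads at 1.33 µM and 39.1, 90.9, 68.9 and 54.6 at 13.3 µM, against 462, 57.8, 258 and 911 in controls. At 48 hpf every group held far more, with 2471 to 3132 at 1.33 µM and 2558 to 3754 at 13.3 µM, against 2874 to 4091 in controls. Control pool B at 72 hpf lay within the exposed range, and the other controls spread widely. The change at 13.3 µM was -2.63 ± 0.55 (edgeR adjusted P-value 0.0121), and without control pool D at 72 hpf it was -1.91 with an adjusted P-value of 0.234. It also lost its call without pool A or pool D at 13.3 µM and 72 hpf (-2.47 and -2.57). The related *he1.2* changed by -1.69 ± 0.56 at 13.3 µM and -1.80 ± 0.55 at 1.33 µM without passing, and reads may be shared between these near copies.

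Other genes carried an effect at 48 hpf that was weaker or not called at 72 hpf. *pde6ha* encodes an inhibitory subunit of the photoreceptor phosphodiesterase and belongs to a system that matures in this window. It held 322 to 453 normalised reads at 1.33 µM and 356 to 462 at 13.3 µM at 72 hpf, against 282 to 541 in controls. Its 48 hpf pools held 63.1, 45.4, 65.9 and 41.4 at 1.33 µM and 108, 64.1, 57.0 and 70.0 at 13.3 µM, against 17.4, 9.72, 39.0 and 13.0 in controls. Exposed pools lay within the control range at 72 hpf and above every control at 48 hpf. The effect at 13.3 µM was -0.13 ± 0.18 at 72 hpf, against 1.91 ± 0.31 at 48 hpf, and the change was called at 13.3 µM and at 1.33 µM (-2.04 ± 0.35 and -1.69 ± 0.36, edgeR adjusted P-values 0.000404 and 0.0121). At 1.33 µM the call was lost without 8-MBaP pool A or C or control pool B or D at 48 hpf (the smallest of these changes was -1.44). It was the single called change among 35 photoreceptor genes tested (2.86% at each concentration, against 0.0989% and 0.0677% of all genes at 13.3 and 1.33 µM). Most of that list rose with age in the controls, 29 of 35 with none lower (82.9%, against 22.7% of all genes called in either direction). In the 13.3 µM pools 9 of them were lower and none higher than control at 72 hpf, against 1 higher and 1 lower at 48 hpf (25.7% and 5.71% of the list called, against 2.4% and 1.23% of all genes). At 1.33 µM 1 was lower at 72 hpf and 1 higher at 48 hpf (2.86% of the list each, against 0.968% and 0.614% of all genes). The list summed to a mean of 27400 normalised reads per control pool at 72 hpf, against 2210 at 48 hpf. The low reads limit what could be called at 48 hpf. The median change over the 35 was -0.15 at 13.3 µM and -0.22 at 1.33 µM, against -0.01 over all genes at each. *sagb*, an arrestin, was lower at 72 hpf (-0.87 ± 0.18) and its change of -1.33 ± 0.32 came close to passing (edgeR adjusted P-value 0.0596).

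ENSDARG00000091116, whose human counterpart in the gene table is *PKHD1L1*, a name it shares with another zebrafish ID, was among the more strongly raised genes at both ages. It held 529, 691, 761 and 580 normalised reads at 1.33 µM and 889, 878, 953 and 739 at 13.3 µM at 72 hpf, against 128, 120, 121 and 161 in controls. Its pools at 48 hpf held 565, 532, 442 and 415 at 1.33 µM and 529, 459, 575 and 529 at 13.3 µM, against 54.6, 42.1, 31.0 and 29.6 in controls. The groups were far apart at both ages, but the controls were higher at 72 than at 48 hpf by 1.76 ± 0.18 on the log2 scale and the exposed pools by less. Its effect at 13.3 µM was 2.704 ± 0.14 at 72 hpf, against 3.73 ± 0.17 at 48 hpf. The change was -1.03 ± 0.22 at 13.3 µM and -1.36 ± 0.22 at 1.33 µM (edgeR adjusted P-values 0.0121 and 6.99e-05). At 13.3 µM the call was lost without control pool C or D at 48 hpf, pool D at 13.3 µM and 72 hpf, or control pool D at 72 hpf (-0.96 to -0.91).

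*ptgdsb.2*, of the prostaglandin D2 synthase family, followed the same course. It held 305 to 431 normalised reads at 1.33 µM and 360 to 526 at 13.3 µM at 72 hpf, against 189 to 266 in controls. The 48 hpf pools held 72.8, 113, 89.7 and 136 at 1.33 µM and 123, 94.1, 95.9 and 98.0 at 13.3 µM, against 23.6, 37, 20.7 and 21.3 in controls. Exposed pools were higher than all controls at both ages, by less at 72 hpf on the log2 scale, though not in normalised reads. The change was called at 1.33 µM (-1.29 ± 0.29, edgeR adjusted P-value 0.0274, lost in 9 of 16 fits that left out a library) and not at 13.3 µM (-1.05, 95% interval -1.63 to -0.47).

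*trh* encodes thyrotropin-releasing hormone. At 72 hpf it held 25.3, 24.8, 32.1 and 14.9 normalised reads in the 13.3 µM pools, against 28.7, 22.3, 30.7 and 25.8 in controls. At 48 hpf it held 39.6, 40.4, 153 and 32.7 in the 13.3 µM pools, against 17.4, 16.2, 9.18 and 22.5 in controls. Pool C at 48 hpf stood far above the others. The change at 13.3 µM was -2.15 ± 0.50 (edgeR adjusted P-value 0.0426), and without that pool it was -1.33 with an adjusted P-value of 0.514. Its call was lost in 10 of 16 fits that left out a library.

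A further set was higher than control at 72 hpf but not at 48 hpf. *zgc:165423*, which the gene table gives no further name, held 125, 92.6, 123 and 102 normalised reads at 1.33 µM and 112, 103, 94.9 and 150 at 13.3 µM at 72 hpf, against 19.8, 26.7, 29.6 and 25.8 in controls. The 48 hpf pools held 3.21, 2.96, 2.16 and 10.13 at 1.33 µM and 8.56, 6.21, 1.90 and 0.933 at 13.3 µM, against 6.20, 8.64, 12.6 and 16.6 in controls. Exposed pools were above all controls at 72 hpf, whereas at 48 hpf the counts were low and the groups overlapped. The change was 3.51 ± 0.67 at 13.3 µM and 3.29 ± 0.66 at 1.33 µM (edgeR adjusted P-values 0.00273 and 0.00421), the largest positive changes called at either concentration.

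*atp1a1a.4*, a Na,K-ATPase α subunit gene used in ionocytes, held 471, 487, 445 and 485 normalised reads at 13.3 µM and 72 hpf, against 292, 317, 326 and 284 in controls. At 48 hpf it held 155, 217, 156 and 198 at 13.3 µM, against 229, 274, 177 and 178 in controls. The groups were apart at 72 hpf and overlapped at 48 hpf, with a change of 0.87 ± 0.18 (edgeR adjusted P-value 0.012). It was the single called change among 16 ionocyte genes tested (6.25% at 13.3 µM, against 0.0989% of all genes). Their median change was 0.04 at 13.3 µM and -0.29 at 1.33 µM. At 13.3 µM 4 of the 16 were lower and 1 higher at 72 hpf, against 5 lower and none higher at 48 hpf. These were 31.2% of the list at each age, against 2.4% and 1.23% of all genes. *slc12a10.2*, a sodium chloride cotransporter gene of ionocytes, was among those lower (-3.36 ± 0.54 at 72 hpf and -2.09 ± 0.60 at 48 hpf). *h1-10*, a linker histone gene, changed by 0.675 ± 0.15 at 13.3 µM (edgeR adjusted P-value 0.0329). It held 2316, 2020, 1880 and 2353 normalised reads at 13.3 µM and 72 hpf, against 1386, 1520, 1718 and 1211 in controls, and the groups overlapped at 48 hpf. *jac1* changed by 1.84 ± 0.42 and *pja2*, whose human counterpart encodes a ubiquitin ligase, by 1.65 ± 0.38 at 13.3 µM. *pja2* had no effect called at either age, and its fitted effect lay above control at 72 hpf (0.73 ± 0.25) and below it at 48 hpf (-0.91 ± 0.28).

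Several genes were lower than control at 72 hpf and not called at 48 hpf. *zgc:112964* held 41.2, 40.9, 47.1 and 57.6 normalised reads at 1.33 µM and 85.5, 43.4, 67.4 and 55.6 at 13.3 µM at 72 hpf, against 216, 143, 155 and 221 in controls. Its 48 hpf pools held 227, 227, 203 and 221 at 1.33 µM and 247, 257, 160 and 166 at 13.3 µM, against 231, 246, 288 and 244 in controls. All exposed pools were below all controls at 72 hpf. At 48 hpf the 13.3 µM pools overlapped the controls, whereas the 1.33 µM pools lay just below all of them. The change was -1.25 ± 0.25 at 13.3 µM and -1.78 ± 0.26 at 1.33 µM (edgeR adjusted P-values 0.00724 and 4.19e-06). *si:ch211-209m20.7* held 72.8 to 91.8 at 1.33 µM and 62.6 to 95.1 at 13.3 µM at 72 hpf, against 156 to 344 in controls. Its change was -1.16 ± 0.24 at 13.3 µM and -1.11 ± 0.24 at 1.33 µM (edgeR adjusted P-values 0.012 and 0.0174). Without control pool D at 72 hpf, the highest, the changes were -0.90 and -0.84 and were not called. The call at 13.3 µM was also lost without pool A at 48 hpf or pool D at 72 hpf, and the call at 1.33 µM in 6 fits in all.

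*pvalb5* encodes a parvalbumin, a calcium-binding protein. It held 412, 424, 410 and 358 normalised reads at 1.33 µM and 238, 347, 297 and 258 at 13.3 µM at 72 hpf, against 627, 549, 572 and 553 in controls. At 48 hpf the groups overlapped, with 333 to 408 at 1.33 µM and 294 to 492 at 13.3 µM, against 341 to 446 in controls. The change at 13.3 µM was -0.92 ± 0.18 (edgeR adjusted P-value 0.00604) and at 1.33 µM -0.41 (95% interval -0.76 to -0.06, not called). *slc38a2*, named for a human amino acid transporter, changed by -0.81 ± 0.18 and *tox3*, named for a human nuclear protein, by -0.94 ± 0.22 at 13.3 µM. *tox3* was on either side of control at the 2 ages (-0.50 ± 0.16 at 72 hpf and 0.44 ± 0.15 at 48 hpf) and neither effect was called.

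**Figure D3:**
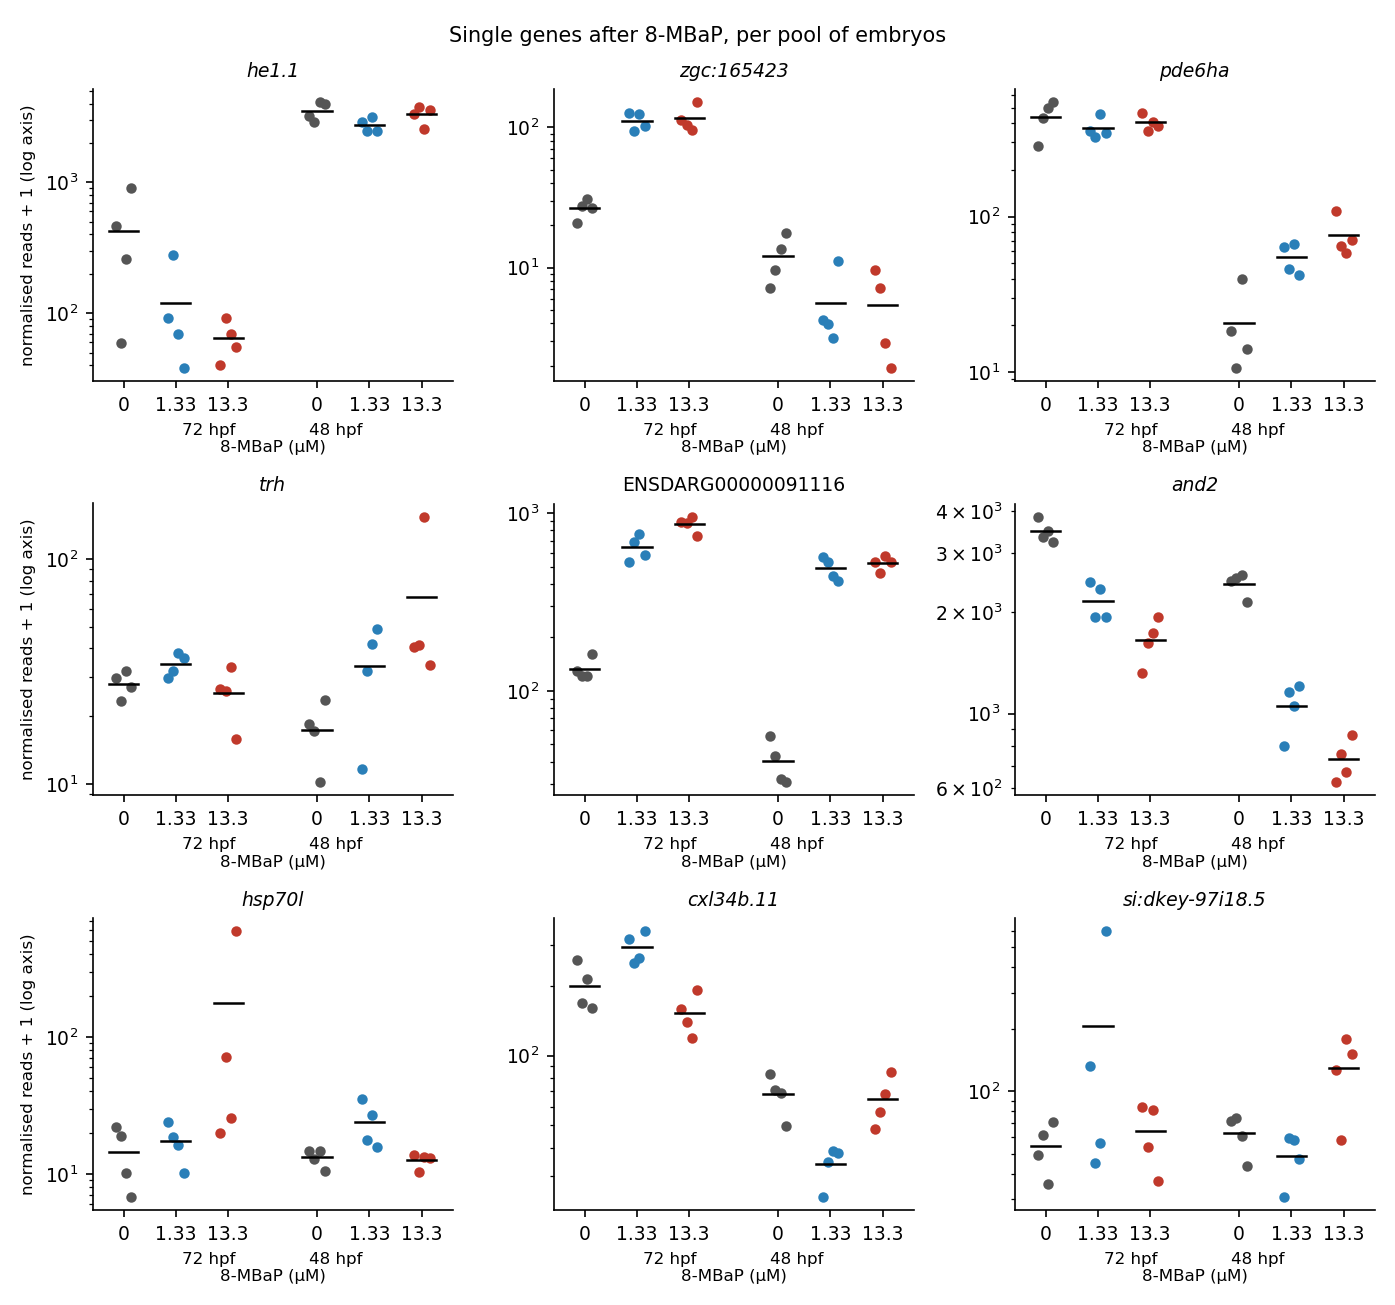
Normalised reads plus 1, on a log axis, of 9 genes in each pool (points) with the mean of 4 pools (bars), by 8-MBaP concentration, at 72 hpf (left in each panel) and 48 hpf (right). Single pools stand apart for *trh* (pool C, 13.3 µM, 48 hpf), *hsp70l* (pool D, 13.3 µM, 72 hpf) and *si:dkey-97i18.5* (pool D, 1.33 µM, 72 hpf).

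At 1.33 µM 6 genes were called that were not called at 13.3 µM. Besides *ptgdsb.2* they were *apoa4b.1*, *cxl34b.11*, *mthfs*, ENSDARG00000014196 and ENSDARG00000056725. *apoa4b.1*, an apolipoprotein A-IV gene of the gut and yolk layer, held 7812, 7236, 7342 and 7046 normalised reads at 1.33 µM and 72 hpf, against 6400, 6493, 6199 and 5281 in controls. At 48 hpf it held 4258, 3980, 3470 and 3312 at 1.33 µM, against 8612, 8133, 5199 and 4257 in controls. The exposed pools were above all controls at 72 hpf, although that effect was not called. But for pool A beside the lowest control, they were below them at 48 hpf, where the controls themselves spread widely. Its change was 1.07 ± 0.20 at 1.33 µM (edgeR adjusted P-value 0.00261) and 0.45 at 13.3 µM (95% interval 0.05 to 0.85, not called). It also passed in the mean, a call lost in 7 of 24 fits that left out a library.

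*cxl34b.11*, a chemokine-like gene, was called at 1.33 µM and differed between the concentrations. It held 319, 250, 262 and 344 normalised reads at 1.33 µM and 158, 139, 118 and 192 at 13.3 µM at 72 hpf, against 258, 168, 214 and 159 in controls. At 48 hpf it held 23.5, 33.6, 37.8 and 36.8 at 1.33 µM and 47.1, 55.9, 67.4 and 84.0 at 13.3 µM, against 81.8, 70.17, 67.7 and 48.6 in controls. The 1.33 µM pools lay below every other pool at 48 hpf, and the 13.3 µM pools overlapped the controls at both ages. The change was -0.33 ± 0.28 at 13.3 µM, against 1.58 ± 0.29 at 1.33 µM (edgeR adjusted P-value 0.00236). *mthfs*, named for a human enzyme of folate metabolism, changed by 1.21 ± 0.25. ENSDARG00000014196 and ENSDARG00000056725, whose human counterparts are *MYL1* and *HMGB3*, changed by -0.66 ± 0.13 and -0.57 ± 0.12 at 1.33 µM, and by -0.36 ± 0.13 and -0.52 ± 0.12 at 13.3 µM without passing.

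The effect change differed between 13.3 and 1.33 µM for 3 genes (0.0156% of genes tested), 1 higher and 2 lower at 13.3 µM. At an unadjusted P-value under 0.05 there were 1117. Besides *cxl34b.11* (-1.905, edgeR adjusted P-value 6.2e-05) they were *hsp70l* and *si:dkey-97i18.5*, and each of these lost its call without a single pool. The count was 5 without pool A at 1.33 µM and 48 hpf and 1 without pool D at 1.33 µM and 72 hpf. *hsp70l*, a heat-inducible chaperone gene, held 19.0, 70.28, 24.5 and 589 normalised reads at 13.3 µM and 22.9, 17.8, 15.4 and 9.10 at 1.33 µM at 72 hpf. Without pool D at 13.3 µM its difference of 4.38 became 2.17, with an adjusted P-value of 0.767. It was also not called without pool D at 1.33 µM and 72 hpf (4.20). *si:dkey-97i18.5* held 83.4, 52.7, 80.4 and 35.8 at 13.3 µM and 132, 43.98, 55.2 and 594 at 1.33 µM at 72 hpf. Without pool D at 1.33 µM its difference of -3.11 became -1.66, with an adjusted P-value of 0.683. Of the 19 genes called at 13.3 µM none, and of the 13 called at 1.33 µM only *cxl34b.11*, differed between the concentrations.

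Another 12 genes passed only in the mean of the concentrations, where 8 exposed pools per age enter. The 10 with the lowest P-values included *tppp*, *endou*, *myog*, *dyrk2*, *tsc22d2*, *ccnt1*, *hnrnpa0b*, *cyt1*, *si:dkey-9l20.3* and ENSDARG00000043923. ENSDARG00000043923 has as human counterpart *SOX9*, a transcription factor of cartilage. It held 78.9, 94.9, 74.2 and 84.9 normalised reads at 1.33 µM and 72.8, 110, 102 and 66.6 at 13.3 µM at 72 hpf, against 151, 173, 165 and 199 in controls. At 48 hpf the ranges were 209 to 287 at 1.33 µM and 239 to 304 at 13.3 µM, against 242 to 331 in controls. It was lower in all exposed pools at 72 hpf only, with a mean change of -0.83 ± 0.17 (edgeR adjusted P-value 0.00893). *myog*, myogenin, a regulator of muscle differentiation, was higher at 72 hpf (0.82 ± 0.16 at 13.3 µM and 0.88 ± 0.16 at 1.33 µM) and close to control at 48 hpf (-0.04 ± 0.17 and -0.01 ± 0.17). Its call in the mean was lost in 10 of 24 fits that left out a library (edgeR adjusted P-values up to 0.158).

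*endou*, whose human counterpart is a poly(U)-specific endoribonuclease, had no read in any of the 8 exposed pools at 48 hpf. The controls at 48 hpf held 4.96, 6.48, 8.03 and 0 normalised reads, so the exposed groups were each at least 5.62-fold lower against a floor of 3 reads over the group. At 72 hpf it held 6.07 to 34.3 at 1.33 µM and 10.7 to 35.9 at 13.3 µM, against 22.5 to 48.1 in controls. With no read in the exposed pools at 48 hpf its fitted change is not given. *tppp* was low throughout, with 11.6 to 21.7 at 1.33 µM and 12.2 to 27.9 at 13.3 µM at 72 hpf, against 1.102 to 4.09 in controls, and its mean change passed (edgeR adjusted P-value 0.0285).

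The AHR battery was strongly raised at both ages, and no change between them was called. Of 19 listed genes 13 were tested, and 8 were called higher at each age and each concentration (61.5% of those tested, against 0.614% to 2.4% of all genes). *cyp1a*, the cytochrome P450 that serves as the standard marker of AHR activation, held 7706, 8156, 7573 and 7379 normalised reads at 1.33 µM and 8946, 7593, 8122 and 7460 at 13.3 µM at 72 hpf, against 40.8, 26.7, 25.5 and 29.2 in controls. At 48 hpf it held 5100, 5545, 5164 and 4500 at 1.33 µM and 6410, 6046, 5636 and 5159 at 13.3 µM, against 29.8, 35.6, 37.9 and 28.4 in controls. The exposed pools were far above every control, and they were higher at 72 than at 48 hpf while the controls overlapped. The effect at 13.3 µM was 8.05 ± 0.18 at 72 hpf, against 7.45 ± 0.19 at 48 hpf. Its change was 0.59 at 13.3 µM (95% interval 0.06 to 1.12, edgeR adjusted P-value 0.68) and 0.73 at 1.33 µM (0.20 to 1.26, edgeR adjusted P-value 0.449), so no difference was detectable after adjustment over all genes.

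The rest of the battery varied around no change. *cyp1b1* had effects at 13.3 µM of 5.61 ± 0.26 at 72 hpf and 5.11 ± 0.23 at 48 hpf, and *cyp1c2* of 5.13 ± 0.40 at 72 hpf and 5.49 ± 0.52 at 48 hpf. *foxq1a*, a forkhead transcription factor gene, had 3.198 ± 0.15 at 72 hpf and 3.69 ± 0.18 at 48 hpf, a change of -0.49 ± 0.24. *ahr2*, the receptor itself, had 1.13 ± 0.17 at 72 hpf and 1.22 ± 0.18 at 48 hpf. *tiparp*, which encodes a repressor of AHR signalling, had 1.603 ± 0.14 and 1.55 ± 0.14, and *foxq1b*, another forkhead gene, 0.97 ± 0.18 and 0.93 ± 0.19. *ugt1a1*, a conjugating enzyme of phase II, was called at 72 hpf only (0.75 ± 0.14 at 13.3 µM), whereas *wfikkn1* was called at 48 hpf only. *wfikkn1* had no read in the 48 hpf controls, and the exposed pools were at least 33.1-fold higher at 13.3 µM and at least 22.4-fold higher at 1.33 µM against a floor of 3 reads over the group. The 72 hpf controls held 2 of its reads in all. At that age the 13.3 µM pools, though not called, lay above every control. They were 7.25-fold above a level of 3 reads, which is not a minimum here because the controls held reads. The 1.33 µM pools overlapped the controls there. *nqo1* and *cyp1d1* were not called at either age, nor were *ahr1b* and *ahrra*, which had few reads. The median change over the 13 genes was 0.045 at 13.3 µM and 0.01 at 1.33 µM, near that of all genes.

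**Figure D4:**
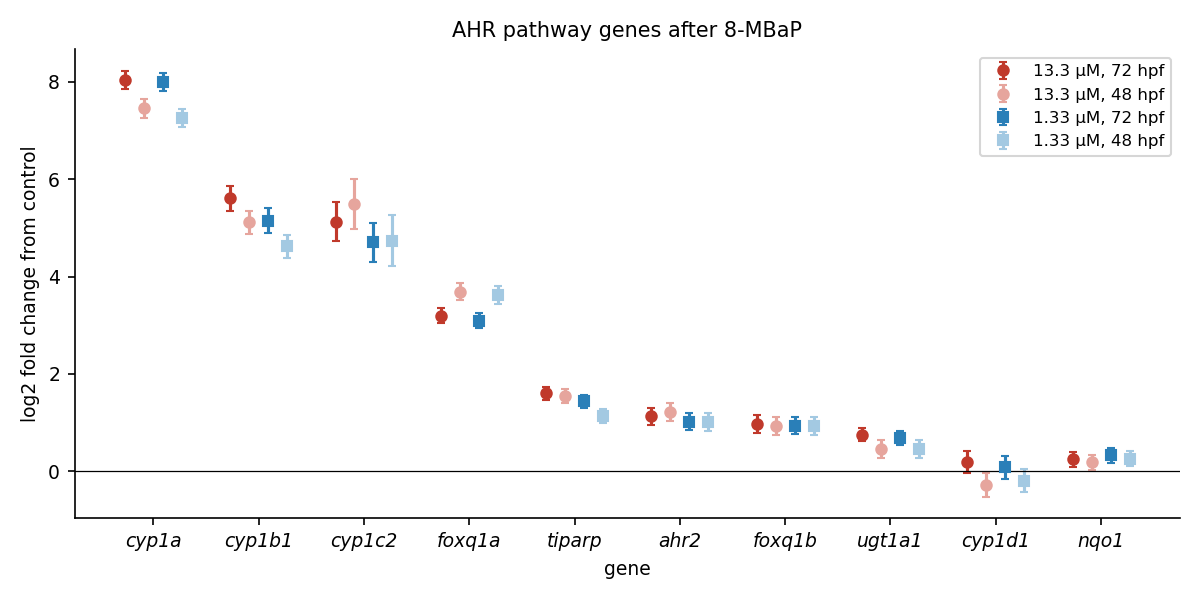
Log2 fold change over control (± SE) of 10 AHR pathway genes at 72 hpf (dark) and 48 hpf (light) with 13.3 µM (circles) and 1.33 µM (squares) 8-MBaP. *cyp1a* lies at 8.05 and 7.45 with 13.3 µM, *foxq1a* is lower at 72 hpf than at 48 hpf, and no gene's change between the ages was called.

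Other tissues and processes were followed by lists of genes. Among 43 lens genes tested, 20 were lower and none higher at 72 hpf with 13.3 µM, against 10 lower at 48 hpf (46.5% and 23.3% of the list, against 2.4% and 1.23% of all genes called in either direction). At 1.33 µM 4 were lower at 72 hpf and 3 at 48 hpf (9.3% and 6.98% of the list, against 0.968% and 0.614% of all genes). None of the 43 had a called change, and their median change was -0.06. *crybb1*, a lens crystallin gene, had -0.60 ± 0.10 at 72 hpf and -0.28 ± 0.10 at 48 hpf. The lens list had a median change of -0.01 at 1.33 µM. Among 39 genes of liver and yolk layer 8 were lower and 2 higher at 72 hpf with 13.3 µM, against 1 lower at 48 hpf. These were 25.6% and 2.56% of the list, against 2.4% and 1.23% of all genes. Again no change was called. *apobb.2*, an apolipoprotein B gene, had -1.52 ± 0.27 at 72 hpf and -0.49 ± 0.19 at 48 hpf, and its change of -1.03 ± 0.33 did not pass.

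Of 21 intestinal genes *apoa4b.1* alone was called at 1.33 µM (4.76%, against 0.0677% of all genes) and none at 13.3 µM. Their median change was 0.62 at 1.33 µM and 0.45 at 13.3 µM. Of 24 genes listed under lysosome and hatching gland, *he1.1* and *zgc:165423* were called at 13.3 µM and *zgc:165423* at 1.33 µM. These were 8.33% and 4.17% of the list, against 0.0989% and 0.0677% of all genes. The gene table gives no name that would place *zgc:165423* in either. Of 46 listed muscle genes 27 were tested, and of these *myog* was called in the mean (3.7%, against 0.156% of all genes). ENSDARG00000014196, with *MYL1* as human counterpart, was called at 1.33 µM and in the mean. As an ID without a unique name it was not in that list. Among 24 antioxidant genes 6 were higher at 72 hpf and 3 at 48 hpf with 13.3 µM (25% and 12.5% of the list, against 2.4% and 1.23% of all genes). They included *nfe2l2a*, the regulator of the antioxidant response (1.17 ± 0.11 at 72 hpf and 0.74 ± 0.11 at 48 hpf). None of the 24 had a called change. Among 32 genes of ER and heat stress 3 were higher at 72 hpf with 13.3 µM (9.38% of the list, against 2.4% of all genes) and none at 48 hpf. No change was called in this list at either concentration. Those higher included *hsp70l* and *hsp70.3* (1.82 ± 0.40 at 72 hpf), near copies that may share reads. Pool D stood apart for both at 13.3 µM and 72 hpf. *hsp70.3* held 53.8, 110, 75.8 and 869 normalised reads there, against 86.0, 57.8, 79.7 and 89.1 in controls, and both genes overlapped the controls.

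No change was called at either concentration or in the mean for any tested member of the lists of collagens (37 genes), retinoid, thyroid and growth signals (36), myeloid and immune genes (34), cell cycle (28), circadian genes (27), early response and inflammation (24), neural genes (24), erythroid genes (22), exocrine pancreas (20), cartilage and bone (20), p53 and DNA damage (20), notochord (17) and heart (15). Their median change at 13.3 µM ran from -0.62 in exocrine pancreas to 0.10 in cartilage and bone. Lists were matched by gene name, so IDs without a unique name are not counted in them. Of 32 listed cartilage and bone genes 20 were tested. ENSDARG00000043923, with *SOX9* as human counterpart, was called in the mean but was not among them. Cell cycle genes fell with age in the controls, 26 of 28 called lower at 72 hpf (92.9% of the list, against 22.7% of all genes called in either direction). In the 13.3 µM pools 1 of them was lower than control at 72 hpf (3.57%, against 2.4% of all genes). Effects among the 34 myeloid and immune genes went both ways with 13.3 µM. At 72 hpf 3 were higher and 4 lower, against 3 higher and 2 lower at 48 hpf. These were 20.6% and 14.7% of the list, against 2.4% and 1.23% of all genes. *lyz*, a lysozyme gene of myeloid cells, had -0.56 ± 0.21 with 13.3 µM at 72 hpf, not called, and was lower at 48 hpf (-1.04 ± 0.18). Of the 24 early response and inflammation genes 3 were higher and 2 lower at 72 hpf with 13.3 µM, against 1 lower at 48 hpf. These were 20.8% and 4.17% of the list. At 48 hpf 18 of the 24 had a positive effect, with a median of 0.28. *cxcl8a*, a chemokine gene that attracts neutrophils, had -0.86 ± 0.39 at 72 hpf, not called, and -2.26 ± 0.47 at 48 hpf, which passed. Neither gene's change was called.

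Fewer changes between the ages passed adjustment with the other compounds. With 13.3 µM BaP 2 genes passed (0.0104% of genes tested), both negative: *krt4* (-0.50 ± 0.10) and ENSDARG00000091116 (-1.13 ± 0.23). With 13.3 µM 6-MBaP no gene passed by edgeR's test. At an unadjusted P-value under 0.05 there were 1447 genes with BaP and 1029 with 6-MBaP, against 1262 with 13.3 µM 8-MBaP. By that count BaP did not show fewer changes. The difference itself was tested at the matched concentration of 13.3 µM. The effect change with 8-MBaP differed from that with BaP for 11 genes (0.0573%, 7 higher and 4 lower, 1503 at an unadjusted P-value under 0.05) and from that with 6-MBaP for 13 genes (0.0677%, 5 higher and 8 lower, 1277 unadjusted). Of the 19 genes called for 8-MBaP at 13.3 µM, 3 differed from BaP and 8 from 6-MBaP. The count against BaP ranged from 1 without 8-MBaP pool A at 48 hpf to 28 without pool C at 72 hpf. It was 6 without 8-MBaP pool C at 48 hpf, 6, 5 and 3 without BaP pools B, C and D at 48 hpf, 4 without 8-MBaP pool A at 72 hpf and 4 without BaP pool B at 72 hpf. The count against 6-MBaP was 8 and 7 without 8-MBaP pools A and B at 48 hpf and 8 without pool D at 72 hpf.

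*pde6ha* differed from both. Its 13.3 µM pools at 48 hpf held 108, 64.1, 57.0 and 70.0 normalised reads with 8-MBaP, against 9.30, 27.5, 19.0 and 22.3 with BaP and 22.8, 13.98, 9.18 and 20.9 with 6-MBaP. Only the 8-MBaP pools stood above the control range. The difference in effect change was -1.84 from BaP and -2.01 from 6-MBaP (edgeR adjusted P-values 0.00463 and 0.000516), and the one from BaP lost its call without 8-MBaP pool A at 48 hpf (-1.62). *zgc:112964* also differed from both, by -1.26 and -1.16 (edgeR adjusted P-values 0.0126 and 0.0211), and lost these calls in 4 and 7 of 16 leave-out fits (adjusted P-values up to 0.0969 and 0.137). At 72 hpf it held 85.5, 43.4, 67.4 and 55.6 with 8-MBaP, against 117, 172, 122 and 137 with BaP and 152, 183, 144 and 170 with 6-MBaP, with no overlap. ENSDARG00000056725 differed from both by -0.64 and -0.74.

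Of the 17 keratins tested, *krt4* and *krt15* had an effect change that differed between 8-MBaP and 6-MBaP (11.8%, against 0.0677% of all genes). None had a difference called between 8-MBaP and BaP. *krt4* held 20470, 20000, 17010 and 21000 normalised reads with 8-MBaP at 72 hpf, against 27360, 30580, 31030 and 31180 with BaP and 43580, 40990, 38550 and 42240 with 6-MBaP. The compounds did not overlap at 72 hpf. Its effect change differed from 6-MBaP by -0.46 (edgeR adjusted P-value 0.0215) and from BaP by -0.17 (95% interval -0.36 to 0.03, edgeR adjusted P-value 0.711). *krt15* differed from 6-MBaP by -1.11 (edgeR adjusted P-value 0.0408) and from BaP by -0.73 (95% interval -1.24 to -0.23, edgeR adjusted P-value 0.407). The differences from 6-MBaP lost their call in 8 of 16 leave-out fits for *krt4* and in 11 for *krt15*. *pvalb5* differed from 6-MBaP by -1.01, ENSDARG00000091116 by -1.07, *zgc:165423* by 3.16 and *trh* by -2.47. Without 8-MBaP pool C at 48 hpf the *trh* difference was -1.645, with an adjusted P-value of 0.345. The *hsp70l* difference from 6-MBaP of 3.85 became 1.63 without pool D of 8-MBaP at 72 hpf, with an adjusted P-value of 0.789.

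*cyp1a* set the compounds apart by level. It held 8946, 7593, 8122 and 7460 normalised reads with 13.3 µM 8-MBaP at 72 hpf, against 2223, 1849, 1735 and 1679 with BaP and 207, 174, 171 and 183 with 6-MBaP. Its effect change with 8-MBaP differed by 0.55 from BaP (95% interval 0.21 to 0.90) and by 0.17 from 6-MBaP (-0.21 to 0.54), and neither difference was called.

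*fabp2*, an intestinal fatty acid binding protein gene, differed from both compounds although its change with 8-MBaP alone was not called. At 72 hpf it held 3445, 2896, 4649 and 4083 normalised reads with 13.3 µM 8-MBaP, against 1538, 1836, 2178 and 1966 with BaP and 2520, 2606, 1207 and 2332 with 6-MBaP. Its 8-MBaP pools were above all BaP and 6-MBaP pools at 72 hpf and overlapped the controls. The difference was 1.296 from BaP and 1.02 from 6-MBaP (edgeR adjusted P-values 0.000332 and 0.0114), made up of a change of 0.535 ± 0.21 with 8-MBaP, -0.76 ± 0.21 with BaP and -0.48 ± 0.21 with 6-MBaP. The difference from 6-MBaP lost its call in 4 of 16 leave-out fits, among them the fit without 6-MBaP pool C at 72 hpf (0.816, edgeR adjusted P-value 0.096). *apoa4b.1* and *atp1a1a.4* differed from BaP by 0.96 and 0.83 (edgeR adjusted P-values 0.0186 and 0.0288), and these lost their call in 6 and 10 of 16 leave-out fits.

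**Figure D5:**
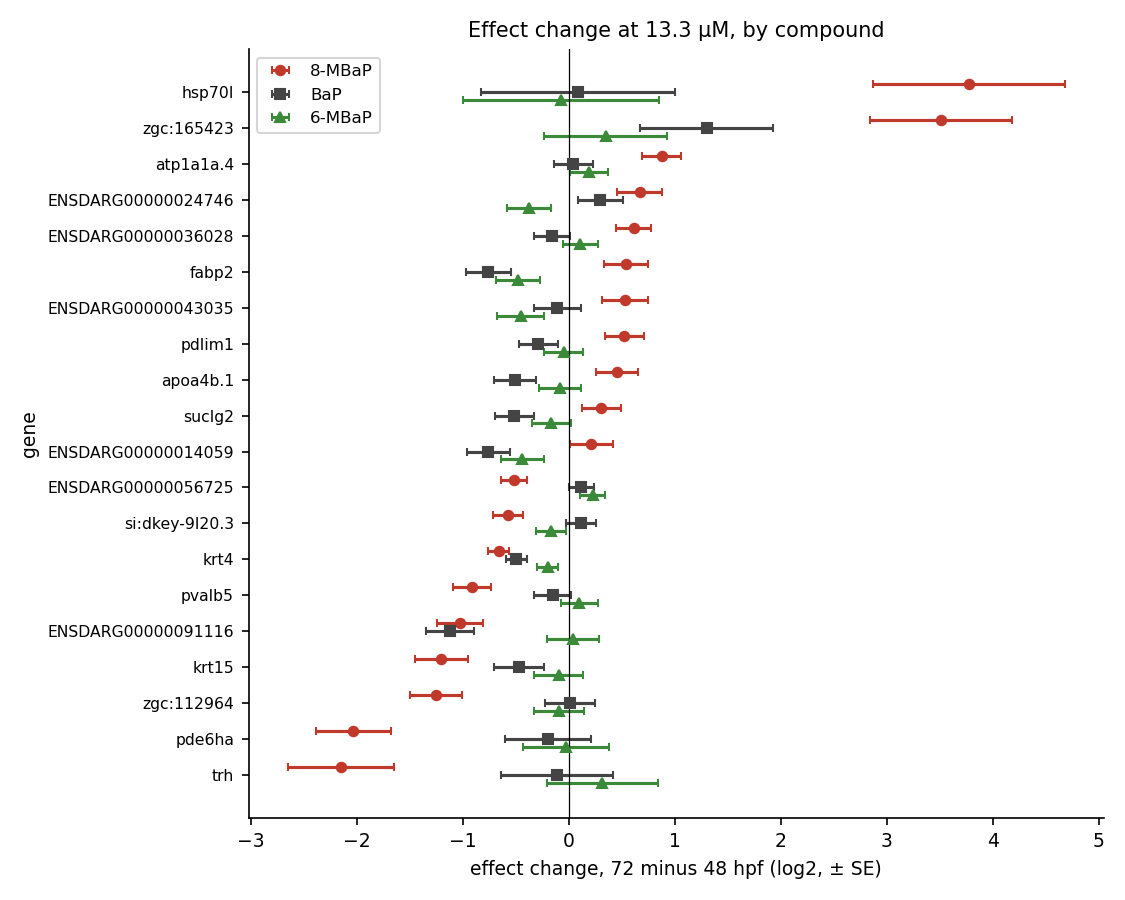
Effect change (72 minus 48 hpf, log2, ± SE) at 13.3 µM with 8-MBaP (circles), BaP (squares) and 6-MBaP (triangles) for the genes whose change with 8-MBaP differed from BaP or 6-MBaP. For *pde6ha* 8-MBaP lies at -2.04 and the other compounds near 0, whereas for *krt4* and ENSDARG00000091116 BaP lies near 8-MBaP.

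The calls were not equally firm. At 13.3 µM *krt4*, *zgc:112964*, *pde6ha* and *zgc:165423* were called in every one of 16 fits that each left out a library. At 1.33 µM *cyt1l* lost its call without pool D at 72 hpf (-1.075), ENSDARG00000014196 without control pool D at 72 hpf (-0.56), *mthfs* without control pool B at 48 hpf or pool D at 72 hpf (1.15 and 1.105) and ENSDARG00000056725 in 4 fits. At 1.33 µM the call held in every such fit for *krt4*, *apoa4b.1*, *zgc:165423*, ENSDARG00000091116, *cxl34b.11* and *zgc:112964*. *krt15* lost its call at 13.3 µM without pool A at 48 hpf (-1.09) or pool D at 72 hpf (-1.155), *pvalb5* without pool A at 48 hpf (-0.75), and *atp1a1a.4* without pool A or C at 48 hpf or control pool B at 48 hpf (0.74 to 0.81). *and2* lost it without any of 4 pools (0.58 to 0.63) and *cyt1l* without any of 7 (-1.085 to -1.04). *tox3* and *pja2* lost it in 11 of the 16 fits, *jac1* in 10, *slc38a2* in 9 and *h1-10* in 8. Of the named genes called only in the mean, *dyrk2*, *tsc22d2* and *si:dkey-9l20.3* lost the call in 13 of 24 such fits. *ccnt1* lost it in 11, *myog* in 10, *hnrnpa0b* in 9, *tppp* in 6, *cyt1* and *endou* in 3 and ENSDARG00000043923 in 2. No change reversed its sign in any of these fits.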

How the data were processed

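RNA of whole zebrafish embryos was sequenced from the 3′ ends of transcripts. The authors deposited a table of raw read counts per Ensembl gene, mapped and demultiplexed by the sequencing company. The aligner and the genome build are not given in the sources used here. Of 32520 gene IDs, 14475 were named by a zebrafish symbol and 8112 through the human counterpart, 22587 in all.

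A gene was tested when 2 or more of the 80 libraries held 5 or more of its reads (19211 genes). All 20 groups of 4 pools were fitted together with edgeR 4.0.16 in R 4.3.3, with TMM normalisation, the quasi-likelihood F test and Benjamini-Hochberg adjustment over all genes (threshold 0.05). The effect change was the interaction of exposure and age, where the later age also carries the longer exposure. Normalised reads were scaled to the mean effective library size of 6519461. Standard errors and 95% intervals are those of the fitted log2 values. Totals of the 24 libraries were 5353245 to 8241439 reads. Counts of 0 and floors of 3 reads cover counting error only. The script was tested on simulated data with known answers. There all genes shared the same dispersion setting, and large changes were placed only in genes without low counts. That test does not cover genes with few reads, small changes or widely spread pools.

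The members and the gene lists were chosen with earlier results of these data known. Genes named are those called in the effect change at either concentration, the 10 with the lowest P-values among those called only in the mean, all tested AHR battery genes, up to 3 of each other list by lowest P-value, and the 5 lowest P-values in each difference between concentrations or compounds. Genes outside the rule are said to be so, are tissue markers, or are among the differences between compounds flagged below. The rule takes 115 genes. The text gives values for part of these, list members without a called change are otherwise covered by the counts of their lists, and 1 called gene is not reported here. Genes that the table names only through the human counterpart (*slc38a2*, *tox3*, *trh*, *pja2*, *h1-10*, *mthfs*, *ccnt1*, *dyrk2*, *fabp2*, *endou* and *myog*) carry that name. Alternatives were RLE size factors, no low-count filter, filterByExpr, the pool letter as a block, a fit restricted to the groups compared, DESeq2 1.42.0, and leaving out each library.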

Additional observations from a re-analysis of the deposited data

Results flagged for a closer look

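Of 24 genes in 6 groups each (144 groups of 4 pools), 5 had a pool whose gap to the nearest other exceeded Dixon's 95% critical value for 4 samples. Chance flags about 1 in 20 groups. *trh* held 152.8 normalised reads in pool C at 13.3 µM and 48 hpf, against 32.66, 39.6 and 40.35 in the other pools. *zgc:165423* held 10.13 in pool D at 1.33 µM and 48 hpf. *si:ch211-209m20.7* held 252.6 and *ptgdsb.2* 123.1 in pool A at 13.3 µM and 48 hpf. ENSDARG00000056725 held 967.8 in pool A at 13.3 µM and 72 hpf, below the others.

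The effect of 8-MBaP differed between 72 and 48 hpf by the test of the difference for 19 genes at 13.3 µM, 13 at 1.33 µM and 30 in the mean. Between 13.3 and 1.33 µM the change differed by -1.905 for *cxl34b.11*, -3.109 for *si:dkey-97i18.5* and 4.381 for *hsp70l* (edgeR adjusted P-values 6.2e-05, 0.00518 and 0.00837).

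Between 8-MBaP and BaP at 13.3 µM, the change was higher with 8-MBaP for *fabp2* by 1.296, ENSDARG00000014059 (human counterpart *CLDN5*) by 0.9715, *apoa4b.1* by 0.9648, *atp1a1a.4* by 0.8314, *suclg2* by 0.8209, *pdlim1* by 0.8114 and ENSDARG00000036028 (*ARRDC3*) by 0.7706. It was lower for *pde6ha* (-1.839), *zgc:112964* (-1.264), *si:dkey-9l20.3* (-0.6923) and ENSDARG00000056725 (-0.6371). Between 8-MBaP and 6-MBaP, it was higher for *hsp70l* by 3.849, *zgc:165423* by 3.163, ENSDARG00000024746 (*HSP90AA1*) by 1.043, *fabp2* by 1.017 and ENSDARG00000043035 (*CAPN3*) by 0.9803. It was lower for *trh* (-2.468), *pde6ha* (-2.012), *zgc:112964* (-1.163), *krt15* (-1.109), ENSDARG00000091116 (-1.069), *pvalb5* (-1.013), ENSDARG00000056725 (-0.7415) and *krt4* (-0.4619). What moves these genes was not tested.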

How the results depend on the processing

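Counts are given in the order 13.3 µM, 1.33 µM, mean, 13.3 minus 1.33 µM, 8-MBaP minus BaP and 8-MBaP minus 6-MBaP, against 19, 13, 30, 3, 11 and 13 as reported. Without a low-count filter, where genes with fewer reads also enter the test, 77, 76, 80, 37, 95 and 61 genes were called. Their splits of higher and lower were 34 and 43, 32 and 44, 35 and 45, 16 and 21, 48 and 47, and 17 and 44. DESeq2 called 40, 51, 56, 4, 43 and 18. A fit restricted to the groups being compared gave 19, 24, 36, 4, 8 and 17. RLE size factors gave 19, 13, 30, 3, 11 and 14, and filterByExpr 20, 13, 30, 3, 11 and 15. With the pool letter as a replicate block the counts were 17, 15, 31, 3, 9 and 12. Letters did not pair the pools, since deviations of 60 same-letter pairs correlated at -0.152 to 0.119 (median -0.00357) and 1 pair passed 0.1. Leaving out each library gave 8 to 23, 10 to 17, 13 to 32, 1 to 5, 1 to 28 and 7 to 15 genes. Of 89 gene calls, RLE lost 0, filterByExpr 1, no filter 2, the block 5, the compared groups alone 18 and DESeq2 1 of 77 with an adjusted P-value. No value changed sign. The cause of these differences was not tested. Of the 89 calls, 27 held in every leave-out fit. Low counts limit *endou*, *tppp*, *wfikkn1* and *zgc:165423* at 48 hpf or in controls.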
